A study of Homo sapiens with 12 samples.

Results

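The genes described here are 60 human genes of the cell division cycle, from the cyclins and kinases that open G1 to the factors that end mitosis. They were chosen by name, and all 60 were found among the 60666 gene rows of the count files and were among the 14274 genes that passed the filter on low counts. By role they comprise 8 G1/S cyclins, kinases and CDC25A, 3 E2F factors, 13 genes of origin licensing and the replicative helicase, 7 genes of the replication fork and of nucleotide supply, 9 genes of entry into mitosis, 12 of the spindle and its checkpoint, 3 of the centromere, 3 of mitotic exit and 2 proliferation markers. The first 4 role groups hold 31 genes, called G1/S and replication genes below, and the last 5 hold 29 genes, called mitotic genes.

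Huh7 cells, a human hepatocellular carcinoma line, were cultured with DMSO alone or with Molidustat at 25 µM, an inhibitor of the prolyl hydroxylases that mark the hypoxia-inducible factors (HIF) for degradation. RNA was taken after 24 h or 48 h. The 4 groups of treatment and time held 3 replicates each, which made 12 libraries. No group carried a genetic change, and the cells of all groups belonged to a single tumour line, which divides without the controls of normal hepatocytes. Replicates are named as biological in the study's methods and as RNA extractions in the series' design text, so the p-values given here measure the spread between these samples, which may be technical. Levels are counts per 1e6 reads on genes (CPM) scaled by the trimmed mean of M-values (TMM), and a log2 fold change is Molidustat against DMSO at the same time unless stated otherwise, with its standard error after the sign ±.

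A cell commits to division in G1, when cyclin D with CDK4 or CDK6 and then cyclin E with CDK2 phosphorylate the retinoblastoma proteins and free the E2F factors, which switch on the genes of DNA replication. Origins are licensed by loading of the MCM helicase in G1 and fired in S phase. The proteins of mitosis are made later, in G2, under FOXM1 and the B-MYB complex. Liver cells rarely divide in the adult, and the whole programme is raised in hepatocellular carcinoma and in its cell lines, in which MKI67, TOP2A and CCNB1 serve as markers of cycling cells. In RNA from whole cultures, fewer cells in a phase cannot be told apart from less of the transcript per cell.

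The libraries held 1499273 to 9179389 gene counts, and the 60 genes together took 10096 to 84786 of the counts of a library. RRM2, PCNA and CDC20 have processed copies elsewhere in the genome that may share their reads. One library stood apart. DMSO 48 h replicate 2 was the shallowest, with 1499273 gene counts, and 50.4% of its reads lay on no annotated gene against 17.1 to 25.6% in the other 11 libraries. It was the lowest of the 12 libraries for 18 of the 60 genes and the highest for 15, that is 30% and 25% of them, where all genes tested gave 30% and 24.5%. Against the mean of DMSO 48 h replicates 1 and 3 it lay more than 2-fold away in 19 of the 60 genes, 5 higher and 14 lower (31.7%, and 55.1% of all genes tested), whereas replicates 1 and 3 lay more than 2-fold apart in 2 of the 60 (3.33%, and 11.9% of all genes). Most results at 48 h are therefore given with and without this library.

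Targets of HIF were checked first. Of 8 HIF target genes, 7 passed the filter, and all 7 had positive log2 fold changes at both times (medians 2.52 and 1.65). At 24 h edgeR called 4 of them higher, that is an adjusted p below 0.05 with a log2 fold change above 1: BNIP3, a mitophagy receptor, PFKFB4 and PDK1, enzymes that control glycolysis and pyruvate use, and the glucose carrier SLC2A1, with log2 fold changes of 2.81 ± 0.34, 4.16 ± 0.63, 3.60 ± 0.68 and 1.98 ± 0.36, where 0.231% of all genes were called higher. At 48 h edgeR called BNIP3 and PFKFB4 higher, with or without DMSO 48 h replicate 2 (0.21% and 0.315% of all genes), while DESeq2 called 4, against 1.28% of all genes with an adjusted p, and limma-voom 5, against 1.71%. CA9 did not pass the filter. The label of a hepatocyte-derived line was checked with 8 markers of that lineage, all of which passed the filter. Their summed level was 11636, 12396 and 14453 CPM in the DMSO libraries and 16560.4, 16368 and 20085 CPM in the Molidustat libraries at 24 h, with AFP the most abundant gene and none of the markers at 0. At 48 h the sums were 14971, 8416 and 14695 CPM and 21401, 20518 and 23998 CPM, so that every Molidustat library lay above every DMSO library at both times and DMSO 48 h replicate 2 lay lowest. At an unadjusted p under 0.05, 5 of these 8 markers were higher (62.5%, against 4.53% of all genes) and 1 (HNF4A) lower (8.81% of all genes) at 48 h. With DMSO 48 h replicate 2 left out, 4 were higher and 1 lower (3.68% and 2.92% of all genes). With all libraries edgeR called none of the 8, and DESeq2 and limma-voom called APOA1 and SERPINA1 higher at 48 h (all genes 1.28% and 1.71%). At 24 h DESeq2 called SERPINA1 higher, against 0.852% of all genes. EdgeR without DMSO 48 h replicate 2 called SERPINA1 higher at both times (all genes 0.728% at 24 h and 0.315% at 48 h). The part of these markers in the results on the cell cycle was not tested. The 8 markers of leukocytes, fibroblasts and endothelium summed to at most 12.1 CPM in any library, COL1A2 was the most abundant of them, and CD3E was at 0 in all 12.

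The promoters of these genes carry short motifs, some of which are known as sites of cell cycle factors such as E2F. A few are shown as examples, some of them only for comparison. Promoter sequences of 48 of the 60 genes were found in RefSeq (GRCh38.p14), as the 250 bases before to 50 after each annotated start, and the entries of CCND1, CCNE2, CDK2, E2F8, MCM4, MCM5, FOXM1, TTK, AURKA, TPX2, BIRC5 and UBE2C were not among them. The motifs were 4 in number and were searched on both strands: the cell cycle genes homology region (CHR, TTTGAA), the CCAAT box (CCAAT), the E2F site (TTTGGCGC or TTTCGCGC) and the core of the hypoxia response element (ACGTG). A palindrome such as CACGTG was met on both strands, and E2F letters on opposite strands may overlap; a gene was counted once for each motif. The CHR was present in 16 of 23 mitotic genes (69.6%), in 1 of 25 G1/S and replication genes (RRM1) and in 18.2% of all 27305 genes in the table. The E2F letters were present in 11 of 25 G1/S and replication genes (44%), in 2 of 23 mitotic genes (CDK1 and NUSAP1) and in 1.4% of all genes. A CCAAT box was present in 21 of 23 mitotic, 17 of 25 G1/S and replication and 39.7% of all genes, and ACGTG in 8 of 23, 10 of 25 and 24.9%.

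Windows of 30 bases around the motif are printed below in the direction of the gene, 5′ to 3′, with the motif in capitals. The first set holds CHR letters of mitotic genes: CDC20, CENPA and PLK1 because they had the smallest p-values or a call in some fit, and ESPL1, CCNB2, CDK1 and MKI67 for comparison.
CDC20, chr1:43358904-43358933, plus strand: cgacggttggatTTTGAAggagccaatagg
CENPA, chr2:26786026-26786055, plus strand: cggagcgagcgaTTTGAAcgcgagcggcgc
PLK1, chr16:23678848-23678877, plus strand: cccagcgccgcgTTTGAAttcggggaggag
ESPL1, chr12:53268256-53268285, plus strand: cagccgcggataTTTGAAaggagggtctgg
CCNB2, chr15:59105105-59105134, plus strand: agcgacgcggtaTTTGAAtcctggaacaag
CDK1, chr10:60778397-60778426, plus strand: ctgattggctgcTTTGAAagtctacgggct
MKI67, chr10:128126453-128126482, minus strand: ttagcgccagaaTTTGAAtcttcgttttcg

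The second set holds E2F letters of G1/S and replication genes. In POLE2 they lie on the strand opposite to the gene, so they read GCGCCAAA.
E2F1, chr20:33686387-33686416, minus strand: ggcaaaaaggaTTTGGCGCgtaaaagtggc
MCM6, chr2:135876515-135876544, minus strand: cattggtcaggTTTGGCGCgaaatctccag
MCM7, chr7:100101388-100101417, minus strand: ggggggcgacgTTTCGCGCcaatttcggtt
GMNN, chr6:24775322-24775351, plus strand: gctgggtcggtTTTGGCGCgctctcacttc
POLE2, chr14:49688201-49688230, minus strand: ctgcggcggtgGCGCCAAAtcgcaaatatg

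The windows of CENPA and PLK1 lie inside the longer gene spans that GENCODE 44 gives, and that of CDC20 lies before its gene span. In CDC20, PLK1 and ESPL1 the CHR began 65, 29 and 31 bases before the start, and in CENPA 18 bases before it. Among the 17 genes of both classes with a CHR, 13 had a negative log2 fold change at 48 h (median -0.50), and without DMSO 48 h replicate 2 all 17 did (median -0.45). Among the 31 genes without it, 17 were negative in either fit (medians -0.15 and -0.071). Of the 17 genes with a CHR 16 are mitotic, so this is largely the division by role again. At 24 h the medians were -0.18 with a CHR and -0.12 without it, -0.24 and 0.057 with and without the CCAAT box (31 of 38 and 3 of 10 negative), -0.13 and -0.13 for the E2F letters, and -0.081 and -0.20 for ACGTG. At 48 h the medians with and without the other motifs were -0.38 and -0.058 for the CCAAT box, -0.34 and -0.39 for the E2F letters, and -0.19 and -0.49 for ACGTG. The same medians without DMSO 48 h replicate 2 were -0.33 and -0.12 for the CCAAT box, -0.24 and -0.31 for the E2F letters, and -0.23 and -0.32 for ACGTG. A match of letters describes the sequence and does not show that a factor was bound.

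The first comparison asked which cell cycle genes differed between Molidustat-treated cells and DMSO alone after 24 h. None of the 60 genes was called by edgeR in either direction, and the calls over all genes were 0.231% higher and 0% lower. At an unadjusted p under 0.05, 2 of the 60 were lower, E2F8 and CDC20, against 1.52% of all genes, and 0 were higher, against 3.73%. DESeq2 and limma-voom called 0 of the 60 as well, with 0.0786% and 0% of all genes lower and 0.852% and 0.448% higher. Without DMSO 48 h replicate 2, which enters the shared estimate of the spread, 5 genes were lower at that threshold (2.85% of all genes) and 0 higher (6.19%), and 0 were called (all genes 0.0328% lower and 0.728% higher). Negative log2 fold changes were found for 41 of 60 genes, against 48.5% of all genes, with a median of -0.12 (all genes 0.019). By class these were 23 of the 29 mitotic genes (median -0.22) and 18 of the 31 G1/S and replication genes (median -0.034). The 3 Molidustat libraries lay below all 3 DMSO libraries for 7 genes (E2F1, E2F8, BUB1, AURKA, NUSAP1, CENPA and CDC20), 11.7% of the 60 against 5.02% of all genes, and above them for 0, against 7.26%.

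After 48 h as many mitotic genes were negative as after 24 h, with a lower median, and the G1/S and replication genes were spread around 0. The median log2 fold change was -0.54 over the 29 mitotic genes, 23 of them negative, and 0.016 over the 31 G1/S and replication genes, 15 of them negative (all genes 0.0060, of which 49.6% were negative). Again 0 of the 60 were called by edgeR, where 0.021% of all genes were called lower and 0.21% higher. DESeq2 called 2 lower (CENPA and CDC20, 3.33% of the 60 against 1.3% of all genes lower and 1.28% higher), and limma-voom called 3 lower (CENPA, CDC20 and PLK1, 5% of the 60 against 0.238% lower and 1.71% higher). At an unadjusted p under 0.05, 11 genes were lower (8 mitotic, 3 of replication), which is 18.3% of the 60 against 8.81% of all genes, and 0 were higher, against 4.53%. The groups did not overlap for 15 genes lower with Molidustat, 12 of them mitotic, 25% of the 60 against 8.02% of all genes, and for 2 higher (CDT1 and POLA1), against 9.96%.

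Without DMSO 48 h replicate 2, 28 of 29 mitotic genes were negative (median -0.63) and 14 of 31 G1/S and replication genes (median 0.011), against 49.1% of all genes. CDC20 was then called lower, where 0.0328% of all genes were lower and 0.315% higher. At an unadjusted p under 0.05, 13 genes were lower, 12 of them mitotic (2.92% of all genes), and 1 was higher, CCNE2 (3.68%). The groups, now of 2 DMSO and 3 Molidustat libraries, did not overlap for 22 genes that were lower, 19 of them mitotic, against 15.4% of all genes, and for 4 that were higher (CCND1, CCNE2, CDT1 and POLA1), against 13.7%. Over the 23 fits that were run, the median of the mitotic genes at 48 h ran from -0.65 to -0.40 and that of the G1/S and replication genes from -0.15 to 0.17.

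By role, the G1/S cyclins, kinases and CDC25A showed no common direction, and 4 of 8 were negative at 24 h and 3 of 8 at 48 h (median 0.036, and 0.27 without DMSO 48 h replicate 2). CCND1, cyclin D1, stood at 474, 639.8 and 674 CPM with DMSO and 579, 628 and 679.5 CPM with Molidustat at 24 h. The corresponding levels were 485, 796 and 491 CPM with DMSO and 635, 612 and 544 CPM with Molidustat at 48 h. The groups overlapped at both times, with log2 fold changes of 0.077 ± 0.31 and 0.016 ± 0.31, and DMSO 48 h replicate 2 was the highest of the 12 libraries. Without it the 2 remaining DMSO libraries lay below all 3 Molidustat libraries (0.28 ± 0.24, adjusted p = 0.949).

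CDK4, a kinase partner of the D cyclins, measured 419.6, 402 and 317 CPM with DMSO and 321, 229 and 233 CPM with Molidustat at 24 h, and 399.6, 178 and 444 CPM with DMSO and 442, 296 and 327 CPM with Molidustat at 48 h. Its groups overlapped, and its log2 fold change at 48 h turned from 0.055 to -0.26 without DMSO 48 h replicate 2, which held the lowest level of all libraries. CCNE2, cyclin E2, had the smallest unadjusted p among the genes with a positive value at 48 h. It stood at 39.7, 48.5 and 41.1 CPM with DMSO and 42.7, 44.9 and 61.9 CPM with Molidustat at 24 h, and at 29.3, 47.9 and 30.5 CPM with DMSO and 48.3, 61.8 and 46.2 CPM with Molidustat at 48 h. Replicate 2 of DMSO was the only DMSO 48 h library within the Molidustat range, and the log2 fold change was 0.56 ± 0.32 (adjusted p = 0.481) with it and 0.78 ± 0.31 (adjusted p = 0.604) without it. The other 5 genes ran from -0.79 (CDC25A, the phosphatase that activates CDK2) to 0.74 (CCND3, cyclin D3, with 0 counts in DMSO 48 h replicate 2), and CCNE1, CDK2 and CDK6 were at 0.66, -0.035 and -0.40. Without that library CDC25A was at -0.51, CCND3 at 0.27, CCNE1 at 0.27, CDK2 at 0.30 and CDK6 at 0.058.

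E2F1 and E2F8 were lower in every Molidustat library than in every DMSO library at 24 h and not at 48 h. E2F1, an activator of replication genes, had 65.2, 65.9 and 58.3 CPM with DMSO and 40.5, 54.5 and 34.8 CPM with Molidustat at 24 h, and 67.6, 31.9 and 41.9 CPM with DMSO and 66.1, 50.2 and 51.7 CPM with Molidustat at 48 h. E2F8, a repressor that acts later in S phase, had 21.8, 18.9 and 27.5 CPM with DMSO and 7.89, 11.4 and 11.2 CPM with Molidustat at 24 h, and 10.0, 18.1 and 18.4 CPM with DMSO and 26.1, 10.3 and 12.6 CPM with Molidustat at 48 h. Neither passed the test at 24 h, where E2F1 was at -0.54 ± 0.33 and E2F8 at -1.15 ± 0.45 with the smallest unadjusted p of the 60 genes with all libraries (0.0216, adjusted p = 0.808 in edgeR). The groups overlapped at 48 h, with log2 fold changes of 0.23 ± 0.33 and 0.10 ± 0.45, and of 0.021 ± 0.31 and 0.19 ± 0.48 without DMSO 48 h replicate 2. E2F2, another activator, had 0 counts in Molidustat 24 h replicate 1, and its value of -1.37 ± 1.04 at 48 h moved to -0.071 ± 0.97 without DMSO 48 h replicate 2.

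Origin licensing and the helicase showed small differences of both signs. Of the 13 genes, 10 were negative after 24 h and 8 after 48 h. Their medians were -0.065 and -0.15, and the 48 h median was -0.13 without DMSO 48 h replicate 2. The MCM2 to MCM7 genes encode the helicase ring and had log2 fold changes from -0.51 (MCM6) to -0.017 (MCM5) at 48 h. The range without DMSO 48 h replicate 2 went from -0.38 (MCM3) to -0.12 (MCM5), with MCM6 at -0.24 and MCM4 moving from -0.48 to -0.13, and no value was positive in either fit. In MCM3 and MCM7 every Molidustat library lay below every DMSO library (-0.34 ± 0.28 and -0.37 ± 0.29), with nearly the same values without DMSO 48 h replicate 2 (-0.38 and -0.34). ORC1 and ORC6, of the origin recognition complex, were at 0.17 and -0.39, and CDC6, which loads the ring with them, was at 0.34. These 3 genes were without DMSO 48 h replicate 2 at 0.11, -0.33 and 0.081.

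GMNN, geminin, which holds back licensing after S phase has begun, stood at 189, 239.6 and 230.3 CPM with DMSO and 169, 121 and 225 CPM with Molidustat at 24 h, and at 208, 104 and 206 CPM with DMSO and 225, 229 and 189.6 CPM with Molidustat at 48 h. GINS2, a subunit of the active helicase, stood at 183, 196 and 121 CPM with DMSO and 214, 136 and 139 CPM with Molidustat at 24 h, and at 178, 73.5 and 159.7 CPM with DMSO and 192, 163 and 160.3 CPM with Molidustat at 48 h. For both genes the groups overlapped at each time, and DMSO 48 h replicate 2 was the lowest library of all 12. Their log2 fold changes at 48 h moved from 0.30 to 0.037 and from 0.31 to 0.011 without it.

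CDT1, the helicase loader that geminin binds, stood at 54.9, 61.2 and 78.5 CPM with DMSO and 75.3, 198 and 49.6 CPM with Molidustat at 24 h, and at 74.0, 93.7 and 80.1 CPM with DMSO and 107, 95.7 and 99.4 CPM with Molidustat at 48 h. It had the smallest unadjusted p among positive values at 24 h (0.73 ± 0.41, adjusted p = 0.999), which rested on Molidustat 24 h replicate 2, since the value was -0.058 without it. At 48 h all 3 Molidustat libraries lay just above all 3 DMSO libraries (0.29 ± 0.41, adjusted p = 0.826). MCM10, a factor of origin firing, had the lowest value of the role group at 48 h with all libraries, -0.90 ± 0.42, and -0.31 ± 0.35 without DMSO 48 h replicate 2.

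The genes of the replication fork and nucleotide supply held the widest range of the role groups at 48 h, from RRM2 at -1.86 to POLA1 at 0.96. RRM2, the small subunit of ribonucleotide reductase (chr2:10120698-10211725 in GRCh38, plus strand), stood at 253, 198 and 266 CPM with DMSO and 266, 517 and 242 CPM with Molidustat at 24 h. The levels were 201, 2059 and 215 CPM with DMSO and 264, 196 and 220.2 CPM with Molidustat at 48 h, so DMSO 48 h replicate 2 alone lay far above the other 11 libraries. Its log2 fold change at 48 h was -1.86 ± 0.69 with that library and 0.11 ± 0.31 without it. TK1, the salvage enzyme thymidine kinase, was lowest in the same library, with 263, 217 and 158 CPM with DMSO and 322, 272 and 192 CPM with Molidustat at 24 h, and 235, 18.1 and 224 CPM with DMSO and 317, 248 and 233 CPM with Molidustat at 48 h. Its groups overlapped at both times (0.72 ± 0.57 at 48 h, and 0.20 ± 0.28 without DMSO 48 h replicate 2).

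POLE2, a subunit of the leading-strand polymerase, is given by library because of its values. It had 25.3, 31.9 and 28.7 CPM in DMSO and 8.76, 17.2 and 13.7 CPM in Molidustat at 48 h, with no overlap, and log2 fold changes of -1.12 ± 0.44 with all libraries and -1.06 ± 0.46 without DMSO 48 h replicate 2 (adjusted p = 0.276 and 0.677). In POLA1, the catalytic subunit of the priming polymerase, every Molidustat library lay above every DMSO library at 48 h (0.96 ± 0.58, adjusted p = 0.521, and 0.65 without DMSO 48 h replicate 2). PCNA, the sliding clamp, TYMS, which makes thymidylate, and RRM1, the large subunit of the reductase, lay between -0.23 and 0.23, and were at 0.0060, -0.045 and -0.24 without that library.

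**Figure D1:**
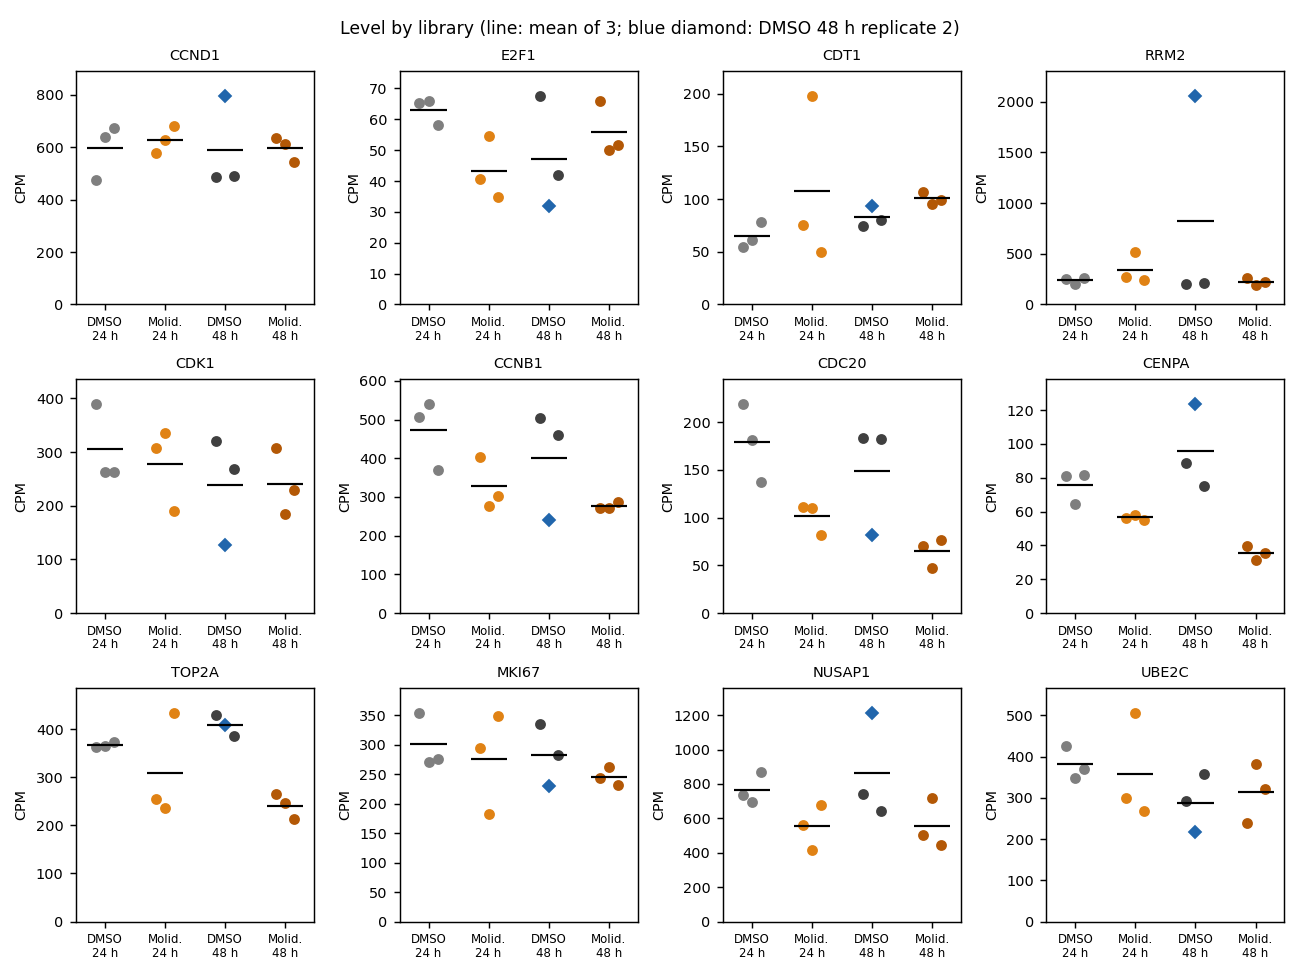
TMM-scaled CPM of 12 of the genes in each library (y axes linear from 0, 1 panel per gene) by group; horizontal lines are means of 3 libraries and the blue diamond is DMSO 48 h replicate 2. The Molidustat 48 h points of CDC20 and CENPA lie below all DMSO points, and the RRM2 diamond lies far above the other 11 libraries.

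Among the genes of entry into mitosis, 6 of 9 were negative at 48 h and all 9 without DMSO 48 h replicate 2 (medians -0.54 and -0.72), and 6 of 9 at 24 h (median -0.22). CCNB1, cyclin B1, the partner of CDK1, stood at 508, 539.7 and 369 CPM with DMSO and 404, 278 and 301 CPM with Molidustat at 24 h, and at 505, 239.5 and 461 CPM with DMSO and 272, 270.3 and 286 CPM with Molidustat at 48 h. DMSO 48 h replicate 2 lay below the 3 Molidustat libraries and the other 2 DMSO libraries far above them. Its log2 fold change at 48 h was -0.54 ± 0.33 (adjusted p = 0.524 in edgeR), and -0.82 ± 0.25 (adjusted p = 0.302) without that library. Over the 23 fits the adjusted p of CCNB1 at 48 h ran from 0.0168, in limma-voom without that library, to 0.810. None of these fits called it, and its log2 fold change ran from -0.82 to -0.35, short of the limit of 1. CDK1, the kinase that drives mitosis, had 389, 262 and 263 CPM with DMSO and 308, 336 and 190.2 CPM with Molidustat at 24 h, and 321, 127 and 268 CPM with DMSO and 308, 184 and 228 CPM with Molidustat at 48 h. Its groups overlapped at both times, and its log2 fold change at 48 h was 0.0057, or -0.31 without DMSO 48 h replicate 2.

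PLK1, a kinase of mitotic entry and spindle assembly (chr16:23677656-23690367), is given by library because of its values. It had 255, 253 and 164 CPM with DMSO and 204, 111 and 98.8 CPM with Molidustat at 24 h, and 229, 202 and 246 CPM with DMSO and 103, 133 and 84.0 CPM with Molidustat at 48 h. The groups overlapped at 24 h and did not at 48 h, also with DMSO replicate 2, which lay close to its 2 fellow replicates. The log2 fold change was -1.09 ± 0.34 with an adjusted p of 0.208 in edgeR, 0.0551 in DESeq2 and 0.00826 in limma-voom, which alone called it lower. FOXM1, the factor that switches on G2 genes, had the lowest value of the role group with all libraries (-1.18 ± 0.50, adjusted p = 0.321) and CKS2, a subunit of the CDK complexes, the highest (0.38 ± 0.49, and -0.011 ± 0.40 without DMSO 48 h replicate 2). CCNA2, cyclin A2, and the phosphatase gene CDC25B were at -0.48 and -0.78 (adjusted p = 0.591 and 0.529), CCNB2, cyclin B2, was at -0.68, and CDC25C, the phosphatase that activates CDK1, was at 0.19. When DMSO 48 h replicate 2 was left out, CCNA2, CDC25B, CCNB2 and CDC25C were at -0.72, -0.95, -0.45 and -0.22.

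The spindle and its checkpoint were represented by 12 genes, of which 10 were negative at 48 h and 11 without DMSO 48 h replicate 2 (medians -0.48 and -0.55). The count at 24 h was also 10, with a median of -0.32. NUSAP1, which bundles spindle microtubules, stood at 736, 693 and 871 CPM with DMSO and 564, 415 and 679.5 CPM with Molidustat at 24 h, and at 740.4, 1214 and 643 CPM with DMSO and 504, 717 and 443 CPM with Molidustat at 48 h. Every Molidustat library lay below every DMSO library at 24 h (-0.47 ± 0.35), while 1 Molidustat library lay within the DMSO range at 48 h (-0.64 ± 0.35, and -0.33 without DMSO 48 h replicate 2). TPX2, the activator of Aurora A, stood at 468, 517 and 473 CPM with DMSO and 386, 239.7 and 529.7 CPM with Molidustat at 24 h, and at 579, 332 and 426 CPM with DMSO and 360.4, 336 and 280.0 CPM with Molidustat at 48 h. Its groups overlapped at 48 h through DMSO replicate 2 (-0.46 ± 0.34, adjusted p = 0.628), and without that library they did not (-0.64 ± 0.29, adjusted p = 0.705).

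AURKA, Aurora A itself, is given by library because of its values. It had 156, 203 and 178 CPM with DMSO and 148, 105 and 139 CPM with Molidustat at 24 h, and 220.0, 108 and 178 CPM with DMSO and 84.3, 117 and 109 CPM with Molidustat at 48 h, without overlap at 24 h and with overlap at 48 h. Its log2 fold changes at 48 h were -0.72 ± 0.32 and, without DMSO 48 h replicate 2, -0.96 ± 0.26 (adjusted p = 0.185). BIRC5, survivin, a member of the chromosomal passenger complex, had 257, 732 and 294 CPM with DMSO and 211, 171 and 159.9 CPM with Molidustat at 48 h. Its groups did not overlap, and DMSO 48 h replicate 2 lay far above the other DMSO libraries. Its log2 fold change at 48 h was the lowest of the role group with all libraries, -1.24 ± 0.39 (adjusted p = 0.208), and was -0.62 ± 0.26 without that library. AURKB, the kinase of the same complex, had the highest value, 0.13 ± 0.33, and 0.0048 ± 0.32 without DMSO 48 h replicate 2. The motor genes KIF20A, KIF23 and KIF11 were at -0.86, -0.55 and -0.50, and at -0.97, -0.65 and -0.63 without that library. The checkpoint genes TTK, BUB1, MAD2L1 and BUB1B were at -0.39, -0.12, -0.063 and 0.11, and at -0.43, -0.49, -0.23 and -0.18 without it, so that BUB1B changed sign.

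With all libraries edgeR gave the lowest p of the 60 genes at 48 h to CENPA, the histone H3 variant that marks centromeres and is made in G2 (chr2:26764289-26801067). It had 81.1, 64.7 and 81.8 CPM with DMSO and 56.3, 58.0 and 55.2 CPM with Molidustat at 24 h. Its levels were 88.8, 123 and 75.1 CPM with DMSO and 39.5, 31.3 and 35.7 CPM with Molidustat at 48 h. The Molidustat libraries lay below the DMSO libraries at both times, and the 3 Molidustat 48 h libraries also lay below the 3 of 24 h. The log2 fold change was -0.43 ± 0.29 at 24 h (adjusted p = 0.999) and -1.42 ± 0.29 at 48 h (unadjusted p = 1.9e-04, adjusted p = 0.0705 in edgeR). DESeq2 and limma-voom called it lower (adjusted p = 4.9e-04 and 0.00710). Without DMSO 48 h replicate 2 it was -1.22 ± 0.27 with an adjusted p of 0.0616, where CDC20 had the lower p, and without DMSO 48 h replicate 1 or 3 it was called (adjusted p = 0.0441 and 0.0417).

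The other 2 centromere genes were lower without overlap at 48 h and short of the threshold. CENPE, a kinetochore motor, stood at 299, 251 and 171 CPM with DMSO and 136, 159 and 368 CPM with Molidustat at 24 h, and at 349, 400.3 and 281 CPM with DMSO and 236, 182 and 198 CPM with Molidustat at 48 h (-0.74 ± 0.38, adjusted p = 0.430). CENPF, a large kinetochore protein of G2 and mitosis, stood at 395, 286 and 341 CPM with DMSO and 267, 199 and 535 CPM with Molidustat at 24 h, and at 335, 297 and 302 CPM with DMSO and 228, 249 and 221 CPM with Molidustat at 48 h (-0.42 ± 0.35, adjusted p = 0.674). In both genes Molidustat 24 h replicate 3 was above every DMSO 24 h library, and the 24 h groups overlapped (-0.12 and -0.031). The 48 h values of CENPE and CENPF were -0.63 and -0.47 without DMSO 48 h replicate 2.

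CDC20, which switches on the anaphase-promoting complex and so starts mitotic exit (chr1:43358981-43363203), had the smallest unadjusted p of a mitotic gene at 24 h. It had 219, 181 and 137 CPM with DMSO and 111, 110.0 and 81.9 CPM with Molidustat at 24 h. The levels were 183, 82.0 and 182 CPM with DMSO and 70.3, 47.6 and 76.9 CPM with Molidustat at 48 h. No Molidustat library reached the DMSO range at either time, although DMSO 48 h replicate 2 lay close to it. The log2 fold change was -0.82 ± 0.35 at 24 h (adjusted p = 0.872) and -1.21 ± 0.35 at 48 h (adjusted p = 0.203 in edgeR, 0.0296 in DESeq2 and 0.00293 in limma-voom). Without DMSO 48 h replicate 2 edgeR called it, at -1.50 ± 0.28 with an adjusted p of 0.0199. A 3 against 3 permutation of a single gene cannot go below p = 0.1, so no exact test of these values could pass.

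UBE2C, the ubiquitin-conjugating enzyme that works with the same complex, stood at 426, 348 and 370.0 CPM with DMSO and 299, 506 and 269 CPM with Molidustat at 24 h, and at 292, 217 and 357 CPM with DMSO and 240.0, 382 and 321 CPM with Molidustat at 48 h. Its groups overlapped at both times (-0.089 ± 0.33 and 0.12 ± 0.34, and -0.057 at 48 h without DMSO 48 h replicate 2). ESPL1, separase, which cuts cohesin, had 15.7, 22.4 and 12.2 CPM with DMSO and 6.29, 3.86 and 5.45 CPM with Molidustat at 48 h. The Molidustat libraries lay below the DMSO libraries, and the log2 fold change was -1.64 ± 0.89 (adjusted p = 0.460, and -1.42 ± 0.90 without DMSO 48 h replicate 2), with all libraries the lowest value and the widest error of the mitotic genes.

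Of the 2 proliferation markers, TOP2A, the topoisomerase that untangles chromosomes, stood at 364, 365 and 373 CPM with DMSO and 255, 236 and 435 CPM with Molidustat at 24 h, and at 430.0, 409.9 and 387 CPM with DMSO and 265, 246 and 213 CPM with Molidustat at 48 h. The groups overlapped at 24 h through Molidustat replicate 3, the highest of the 12 libraries, and did not overlap at 48 h (-0.76 ± 0.30, adjusted p = 0.292 in edgeR, and -0.77 ± 0.27 without DMSO 48 h replicate 2). Over the 23 fits the adjusted p of TOP2A at 48 h ran from 0.0269, in limma-voom without that library, to 0.662. None of these fits called it, and its log2 fold change ran from -0.83 to -0.60. MKI67, the Ki-67 antigen, stood at 355, 271 and 277 CPM with DMSO and 295, 183 and 349 CPM with Molidustat at 24 h, and at 335, 230.0 and 282 CPM with DMSO and 243, 263 and 233 CPM with Molidustat at 48 h. Its groups overlapped at both times with all libraries (48 h -0.20 ± 0.31) and not without DMSO 48 h replicate 2 (-0.34 ± 0.27, adjusted p = 0.936).

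With TMM scaling, the sum over the 29 mitotic genes was lower in every Molidustat library than in every DMSO library at each time. The TMM factor was 0.629 in DMSO 48 h replicate 2 and 1.01 to 1.08 in the other 11 libraries. The place of that library among the 48 h sums therefore depends on the scaling. The 29 mitotic genes took 6022, 5511 and 5292 CPM in the DMSO 24 h libraries and 4596, 4266 and 5107 CPM in the Molidustat 24 h libraries. They took 6060.3, 5541 and 5435 CPM with DMSO and 3961, 4239 and 3772 CPM with Molidustat at 48 h, which was 29.7% below DMSO with all libraries and 30.6% below it without DMSO 48 h replicate 2. The mean with Molidustat at 24 h was 17.0% below that with DMSO. The 31 G1/S and replication genes took 3579, 5207 and 3326 CPM with DMSO and 3759, 3295 and 3316 CPM with Molidustat at 48 h, of which RRM2 alone made up 2059 CPM in DMSO replicate 2, and the means differed by 0.124% without that library. A list of 40 further mitosis genes is described below. It took 5742, 5588 and 5568 CPM with DMSO and 4929, 3598 and 5752 CPM with Molidustat at 24 h. At 48 h it took 5896, 4778 and 5487 CPM with DMSO and 4640, 5149 and 4187 CPM with Molidustat. Its groups overlapped at both times, at 48 h through DMSO replicate 2. Its 48 h mean with Molidustat was 13.5% below DMSO, and 18.1% below without that library. All these sums are described only and were not tested.

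**Figure D2:**
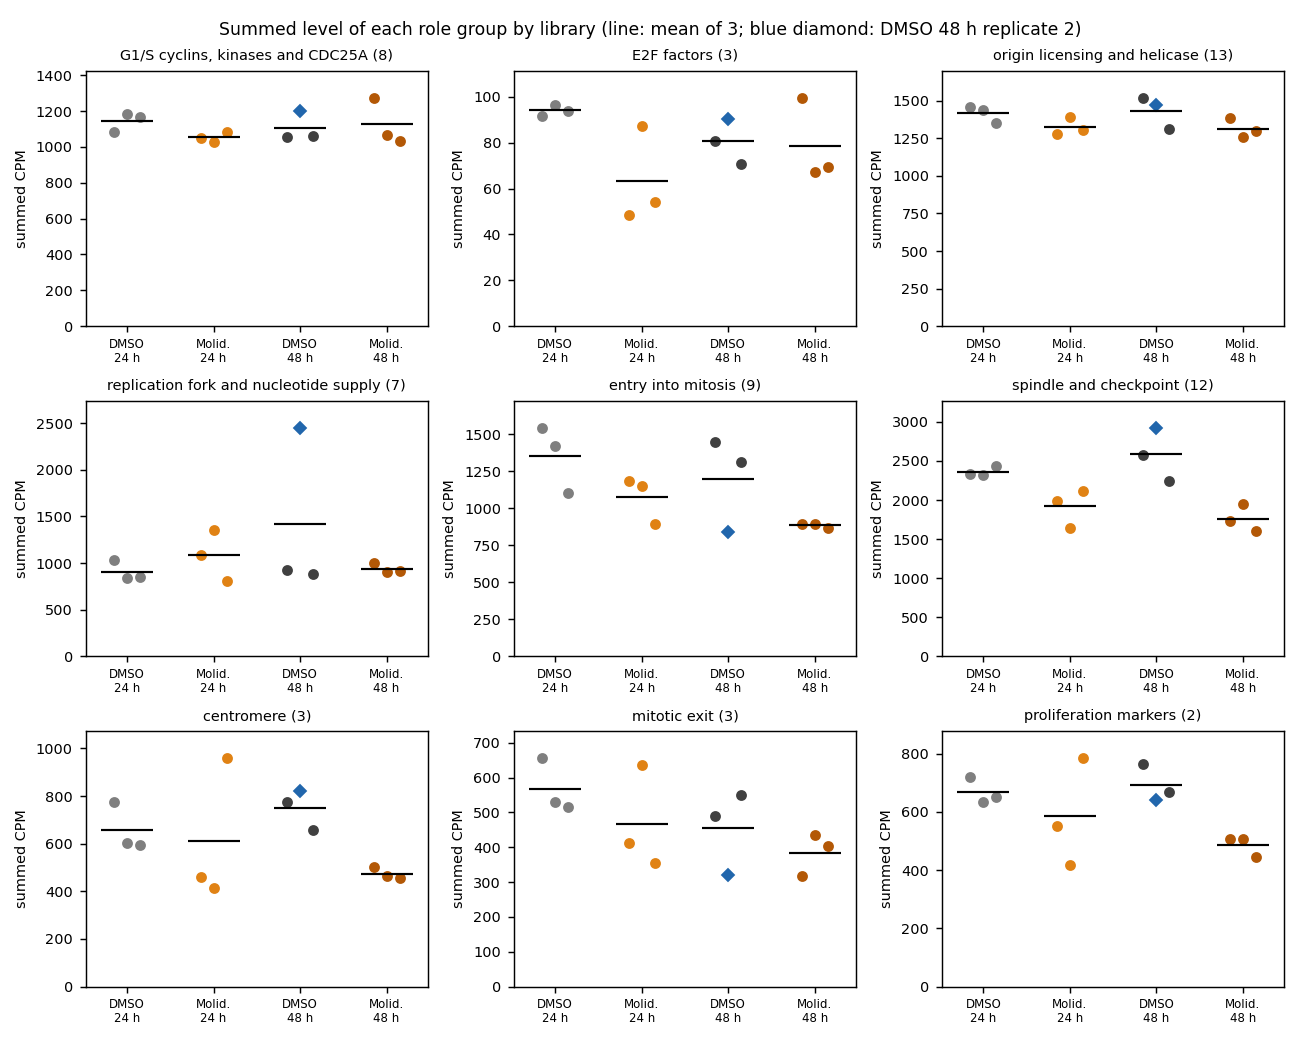
Summed TMM-scaled CPM of each role group in each library (y axes linear from 0, number of genes in brackets); horizontal lines are means of 3 libraries and the blue diamond is DMSO 48 h replicate 2. The Molidustat 48 h points of the spindle, centromere and proliferation groups lie below all DMSO 48 h points, and the G1/S cyclin points overlap.

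Other genes of the same pathways, from lists drawn up with earlier results of these data known, were described in the same way. Of 40 further replication genes, 0 were called at either time by edgeR, DESeq2 or limma-voom. Over all genes at 24 h, edgeR called 0% lower and 0.231% higher, DESeq2 0.0786% and 0.852%, and limma-voom 0% and 0.448%. At 48 h the shares were 0.021% and 0.21%, 1.3% and 1.28%, and 0.238% and 1.71%. At an unadjusted p under 0.05, 0 of the 40 passed at 24 h (1.52% of all genes lower and 3.73% higher). The medians of the 40 were -0.056 at 24 h and -0.046 at 48 h, with 22 and 22 negative. Leaving out DMSO 48 h replicate 2 gave 29 negative at 48 h (median -0.18). At 48 h, 4 were lower (ORC2, RFC5, CLSPN and POLE) and 2 higher (POLA2 and RPA3) at an unadjusted p under 0.05, that is 10% and 5% of them, near the 8.81% and 4.53% of all genes. With DMSO 48 h replicate 2 left out, 0 were lower and 1 (POLA2) higher (2.92% and 3.68% of all genes). POLA2, the partner subunit of POLA1, was higher with and without DMSO 48 h replicate 2 (1.62 ± 0.61 and 1.27 ± 0.57), whereas RFC5, a clamp loader subunit, and CLSPN, claspin, went from -1.40 to 0.12 and from -1.26 to 0.032. Of 40 further mitosis genes 0 were called by any of these tools either, while 29 were negative at 24 h and 26 at 48 h (medians -0.25 and -0.20), and 31 were negative without DMSO 48 h replicate 2 (median -0.39). At an unadjusted p under 0.05, 1 was lower at 48 h with all libraries (SPC24, 2.50% against 8.81% of all genes). Without that library 7 were lower (17.5% against 2.92%), which were KIF4A, ASPM, DLGAP5, ZWINT, CDCA8, SMC4 and RACGAP1. NUF2, a kinetochore subunit, and KIF18A, a kinesin, were lower at 24 h at that threshold (-0.74 ± 0.29 and -0.81 ± 0.37), 5% of the list against 1.52% of all genes.

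Of the 28 regulators of the restriction point and of the kinases, 27 were tested and 0 were called by edgeR or limma-voom. Over all genes, edgeR called 0.231% higher and 0% lower at 24 h, and 0.21% and 0.021% at 48 h. The shares in limma-voom were 0.448% and 0% at 24 h, and 1.71% and 0.238% at 48 h. At an unadjusted p under 0.05, 1 regulator was higher at 24 h, and 1 was higher and 3 lower at 48 h. These are 3.70% against 3.73% of all genes at 24 h, and 3.70% against 4.53% and 11.1% against 8.81% at 48 h. The counts at 48 h were 0 higher and 1 lower when DMSO 48 h replicate 2 was left out, against 3.68% and 2.92% of all genes. CCNG2, cyclin G2, a cyclin linked to cell cycle arrest, was the gene that was higher at 24 h at that threshold (1.35 ± 0.35, adjusted p = 0.238 in edgeR), was called higher at 24 h by DESeq2 (0.852% of all genes), and was at 0.78 ± 0.35 at 48 h. The inhibitor genes CDKN1A (p21) and CDKN1B (p27) did not pass, with -2.01 ± 1.19 and 0.54 ± 0.44 at 24 h, and CDKN1A averaged 1.88 CPM over the 12 libraries. CCNF, cyclin F, was at -1.29 ± 0.39 at 48 h (adjusted p = 0.203) and -0.72 ± 0.29 without DMSO 48 h replicate 2. E2F7 and SKP2, the latter a ubiquitin ligase subunit that removes p27, were at -1.73 and -1.57 with all libraries and at -0.36 and -0.14 without that library.

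**Figure D3:**
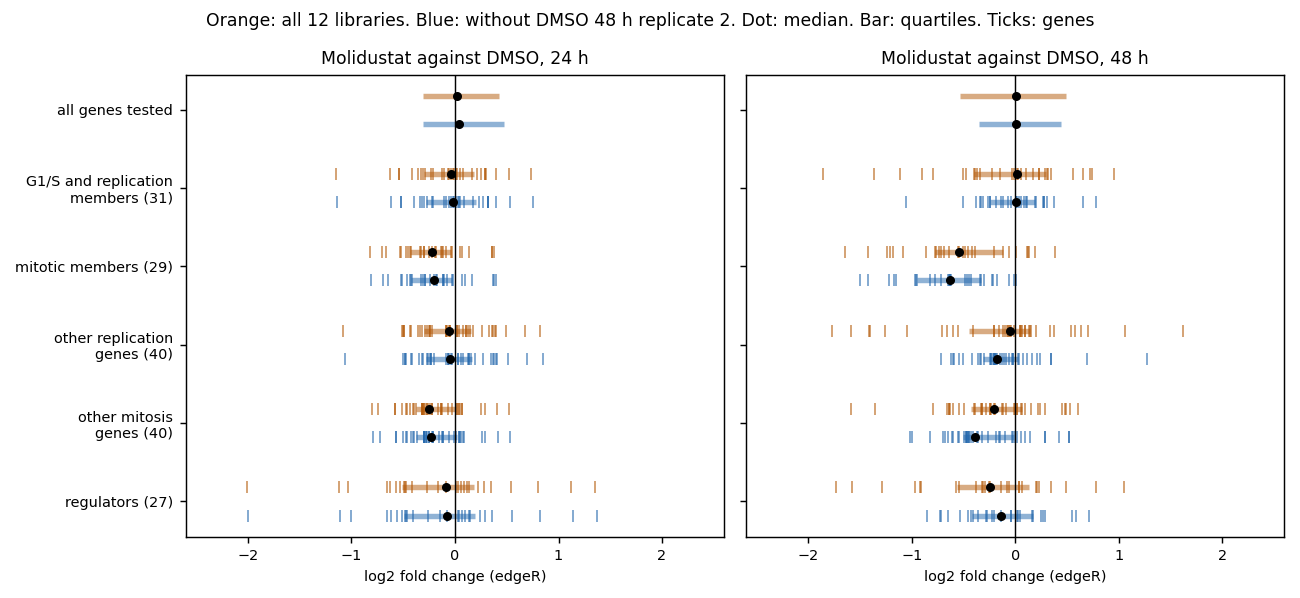
Log2 fold changes of Molidustat against DMSO (x axis, edgeR) at 24 h (left) and 48 h (right) for all genes tested, the 31 G1/S and replication genes, the 29 mitotic genes and 3 further gene lists; ticks are genes, bars quartiles and dots medians, orange for all 12 libraries and blue without DMSO 48 h replicate 2. The mitotic medians at 48 h lie at -0.54 and -0.63, and those of the G1/S and replication genes near 0.

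Whether the response differed between the times was asked by the interaction of treatment and time. It reuses the libraries of both comparisons. None of the 60 was called by edgeR, DESeq2 or limma-voom, and edgeR called none of all genes (0% lower and 0% higher), limma-voom 0% and 0%, and DESeq2 0.0106% and 0.00354%. At an unadjusted p under 0.05, 2 were lower at 48 h relative to 24 h, CENPA (-0.99 ± 0.41, adjusted p = 0.728) and RRM2 (-2.38 ± 0.95, adjusted p = 0.728), against 5.6% of all genes, and 0 were higher (1.18%). The RRM2 value rested on DMSO 48 h replicate 2 and was -0.42 ± 0.41 without it, while CENPA was at -0.80 ± 0.36. Over the mitotic genes the median of this difference was -0.26 (all genes -0.016), and -0.44 without DMSO 48 h replicate 2 (all genes -0.046), and no single gene passed.

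Within a treatment, no gene of the 60 passed the test between the times; these comparisons also reuse the same libraries. With DMSO alone, 0 of the 60 were called by edgeR, DESeq2 or limma-voom between 24 h and 48 h (all genes 0% higher and 0.00701% lower in edgeR, 0.239% and 0.0562% in DESeq2, 0% and 0.014% in limma-voom). The median was -0.015, or 0.062 without DMSO 48 h replicate 2, and RRM2 was the 1 gene at an unadjusted p under 0.05, higher at 1.78 ± 0.68 (6.76% of all genes higher and 1.38% lower). Without DMSO 48 h replicate 2 it was at -0.17 ± 0.31. The 3 DMSO 48 h libraries lay above the 3 of 24 h for 7 genes (5.75% of all genes) and below them for 3 (6.19%). In Molidustat-treated cells 0 were called by these tools as well (all genes 0% higher and 0% lower in edgeR, 0.0342% and 0.0245% in DESeq2, 0% and 0.00701% in limma-voom), 42 of 60 values were negative, against 50.3% of all genes, with a median of -0.15, and CENPA was the 1 gene at an unadjusted p under 0.05, lower at -0.67 ± 0.29 (unadjusted p = 0.0346, 2.19% of all genes lower and 2.39% higher). Without DMSO 48 h replicate 2, which enters the shared estimate of the spread, 4 of the 60 were lower at that threshold and 0 higher. These are 6.67% against 4.86% of all genes and 0% against 4.38%. The 3 Molidustat 48 h libraries lay below the 3 of 24 h for FOXM1, CENPA and CDC20, 5% of the 60 against 6.79% of all genes, and above them for 0, against 7.15%.

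The 48 h values depended on DMSO 48 h replicate 2 to different degrees. RRM2 moved from -1.86 to 0.11, E2F2 from -1.37 to -0.071, BIRC5 from -1.24 to -0.62 and MCM10 from -0.90 to -0.31 when it was left out. In the other direction TK1 moved from 0.72 to 0.20, CDC20 from -1.21 to -1.50 and CCNB1 from -0.54 to -0.82. PLK1, FOXM1, POLE2 and TOP2A moved little, from -1.09 to -1.17, -1.18 to -1.16, -1.12 to -1.06 and -0.76 to -0.77. The median standard error of a log2 fold change at 48 h was 0.35 over the 60 genes and 0.54 over all genes with all 12 libraries. It was 0.31 and 0.52 without DMSO 48 h replicate 2.

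**Figure D4:**
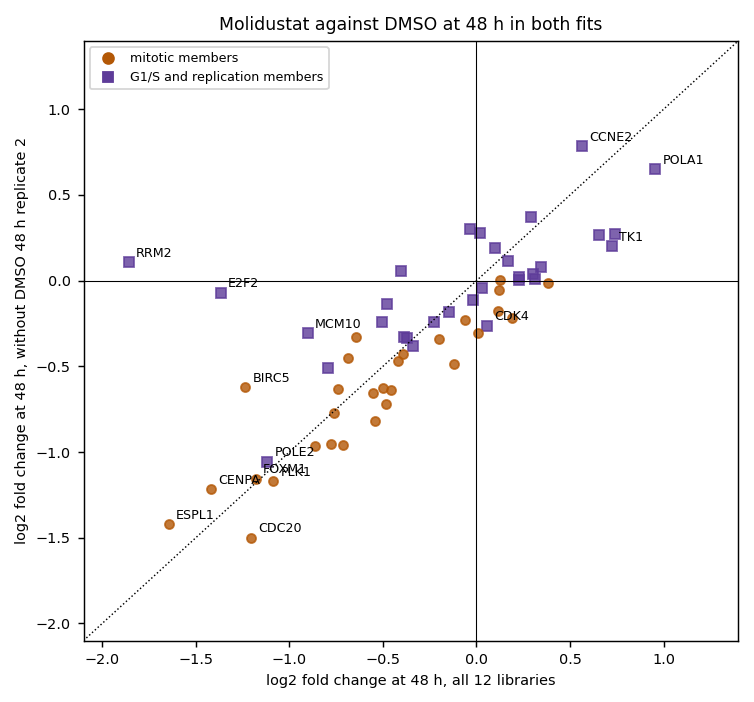
Log2 fold changes at 48 h with all 12 libraries (x axis) and without DMSO 48 h replicate 2 (y axis) for the 60 genes, orange circles for mitotic genes and purple squares for G1/S and replication genes; the dotted line marks equal values. Most mitotic genes lie near the line at negative values, and RRM2, at -1.86 and 0.11, lies far from it.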

How the data were processed

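RNA of the 12 samples was made into libraries with a 3′ transcriptome kit and sequenced on an Illumina instrument. The files hold raw counts per gene, deposited as whole numbers, which the authors made with bcl2fastq 2.17.1.14, cutadapt 1.9.1, STAR 2.7.9a on GRCh38 and HTSeq 0.11.2, and per the study's methods tested with DESeq2 1.26.0. The annotation release, strand setting and use of molecular identifiers are not given in the sources used here, so overlapping genes may share reads and PCR copies may be among the counts. Reads come from the 3′ ends of transcripts; CPM served to choose and name the most abundant genes of a list, and levels were not otherwise compared between genes. The 5 summary lines of each file name no gene and were left out of library sizes and tests. Groups came from the labels, and names and gene positions from GENCODE 44 (60437 of 60666 rows matched). Counts were tested with the quasi-likelihood test of edgeR 4.0.16 (R 4.3.3) on all 12 libraries, with TMM factors, filterByExpr (minimum count 10, minimum total 15) and Benjamini-Hochberg adjustment over 14274 genes, and the step was tested on simulated data. DESeq2 1.42.0, limma 3.58.1 (voom with quality weights), other scalings and filters, a replicate block and each library left out in turn served as alternatives. The 60 genes and all lists were chosen with earlier results of these data known. Every library's values are given for the 2 genes of each role with the highest mean CPM, for genes called and for the smallest p in each direction. POLE2, PLK1, AURKA, BIRC5 and ESPL1 were added after their values were seen, and other genes are given by ranges and by log2 fold change. Promoter sequences are from RefSeq.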

Additional observations from a re-analysis of the deposited data

How the results depend on the processing

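The count of 0 called genes among the 60 held at 24 h and between the times with Molidustat in every fit. At 48 h it was 2 with no filter on low counts (CENPA and RRM2), 2 in DESeq2 (CENPA and CDC20), 3 in limma-voom (CENPA, CDC20 and PLK1) and 0 to 1 when each library was left out. The last rose to 1 for CENPA without DMSO 48 h replicate 1 or 3 and for CDC20 without replicate 2 (0.0328% of all genes lower). Shares of all genes by direction are not given for the fits with no filter or without replicate 1 or 3. The calls in those fits are therefore not read as a result on these genes. Chosen after seeing the data, DESeq2 and limma-voom without DMSO 48 h replicate 2 called 2 and 3 (lower among all genes 0.174% and 0.229%), the same genes as with it. With no filter RRM2 was also called in the interaction (1 gene) and between the times with DMSO (1 gene). Over all genes and in either direction, edgeR called 33 at 48 h, and 764 of the 28430 genes with a count when no filter was used. DESeq2 called 353 and limma-voom 278. The cause of these changes was not tested. The median over the 60 genes at 48 h, -0.36, was -0.15 with total counts, where the median of all genes was 0.13 against 0.0060, -0.22 in limma-voom, -0.21 in DESeq2 without DMSO 48 h replicate 2, and -0.41 to -0.17 when libraries were left out (nearest to 0 without DMSO 48 h replicate 1). With total counts the medians of the interaction and of DMSO over time were 0.11 and -0.20. Leaving out libraries gave -0.21 to 0.062 for DMSO over time, -0.23 to -0.040 for Molidustat over time (nearest to 0 without Molidustat 24 h replicate 3) and -0.21 to 0.032 for the interaction. The median of the 29 mitotic genes at 48 h was negative in all 23 fits. Sign changes were met among the 21 genes chosen by rule. The main test called none of the 60, so all of these changes were in uncalled values by necessity. Of the values that changed sign, RRM2 at 48 h was called with no filter. With 10 counts required in every library GINS2 at 24 h was 0.0056 and CENPF at 24 h was 0.013. At 48 h CCND1 was -0.028 with RLE factors, -0.017 in DESeq2 and -0.016 with the 48 h libraries alone. CDK1 was -0.0093 with no filter and -0.0094 with those libraries alone. In limma-voom CDK4, CDK1 and UBE2C were -0.22, -0.23 and -0.045. Without DMSO 48 h replicate 2, DESeq2 gave -0.22 for CDK4, 0.15 for RRM2, -0.26 for CDK1 and -0.014 for UBE2C, and limma-voom gave -0.30, 0.096, -0.33 and -0.080, with GMNN at -2.6e-04 and GINS2 at -0.0035. When each library was left out, values that changed sign ran at 48 h from -0.31 to 0.27 (CDK1), -0.084 to 0.28 (CCND1), -0.059 to 0.31 (UBE2C), -0.26 to 0.29 (CDK4), -0.41 to 0.31 (E2F8) and -2.27 to 0.11 (RRM2), and at 24 h from -0.28 to 0.093 (GINS2), -0.56 to 0.23 (CENPF), -0.71 to 0.14 (CENPE), -0.30 to 0.079 (CDK1), -0.43 to 0.070 (UBE2C), -0.34 to 0.096 (MKI67), -0.064 to 0.16 (CCND1) and -0.058 to 1.07 (CDT1). Same-numbered libraries of different groups did not deviate together (correlations of -0.090 to 0.14 over 18 pairs). No pairing by number was visible, but deviations from means of 3 libraries cannot exclude one. With the replicate block 0 of the 60 were called in each comparison, and the 48 h median was -0.31. CCND3 and E2F2 had 0 counts in 1 library each, and each group has 3 replicates.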
